A study of Mus musculus with 6 samples.

Results

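Neurofilament and axonal transport genes encode the parts from which long axons are built and the motors that supply them. The set described here held 10 of the 52636 genes listed for mouse optic nerve: Nefl, Nefm, Nefh, Ina, Kif5a, Kif1a, Stmn2, Uchl1, Map1b and Mapt. They were taken as a named list by gene symbol, not by any measured value, and each symbol matched a single gene. All 10 averaged at least 0.5 FPKM (fragments per kilobase of exon length, scaled to the mapped reads of the library) over the libraries and were tested.

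Total RNA of optic nerve was sequenced in 3 hND6 and 3 mCherry libraries. The hND6 group is labelled with a mutant human ND6, a mitochondrially encoded protein of respiratory complex I, and the mCherry group with a red fluorescent protein. The labels give a single treatment text for all 6 libraries, an injection into the eye of lentivirus with the mutant gene, so what the mCherry mice received is told only by the group name. Strain, age, time after injection, any pooling of nerves and whether libraries came from separate mice are not stated. The p-values therefore measure only the spread among 6 libraries, part of which may be technical.

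The optic nerve carries the axons of retinal ganglion cells, whose cell bodies lie in the retina. The nerve itself holds oligodendrocytes, astrocytes, microglia, vessels and sheath, but normally no nerve cell bodies. Neurofilaments are the intermediate filaments of axons: the light (Nefl), medium (Nefm) and heavy (Nefh) subunits assemble with alpha-internexin (Ina) in central neurons and set axon calibre. Kinesins such as KIF5A and KIF1A walk along microtubules towards the axon end with mitochondria, vesicles and cytoskeletal cargo. Tau (Mapt) and MAP1B bind microtubules, stathmin-2 (Stmn2) regulates microtubule growth, and UCHL1 is an abundant ubiquitin hydrolase of neurons. Axons hold some mRNA of their own, and several of these genes are also used by glia, tau in oligodendrocytes among them.

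Reads assigned to genes ran from 20253637 in hND6 2 to 34758873 in mCherry 2. The labelled tissue showed in its markers. Mbp, a myelin gene of oligodendrocytes, ran from 2643 to 3009 FPKM in hND6 and from 1818 to 2783 FPKM in mCherry libraries, and was lowest in mCherry 3. The transcription factors of retinal ganglion cell nuclei Pou4f1, Pou4f2 and Pou4f3 stood at no more than 0.242 FPKM in any library. Of the 10 genes listed for these cells, 3 averaged at least 0.5 FPKM. These were Rbpms, at 15.2 to 32.6 FPKM, Thy1, at 7.65 to 69.3 FPKM, and Sncg, at 3.08 to 5.99 FPKM over the libraries. The libraries were uneven in genes of nerve cell bodies and synapses. The summed FPKM of 16 such genes was 399 in hND6 1, 102 in hND6 2 and 149.7 in hND6 3, against 127 in mCherry 1, 97.6 in mCherry 2 and 1004 in mCherry 3. Of the 16 genes 15 were highest in mCherry 3, the exception being Elavl3, which stood between 28.8 and 36.2 FPKM throughout. Of 8 genes listed for forebrain neurons 6 were highest in mCherry 3. Tbr1, among these, was read at 1.94 FPKM in hND6 1, at 7.18 FPKM in mCherry 3, and at 0.459 FPKM or less elsewhere. Cux2 and Fezf2, the most abundant genes of this list, did not follow it. Cux2 was highest in hND6 1, at 8.22 FPKM, against 6.75 FPKM in mCherry 3. Fezf2 was highest in mCherry 2, at 3.22 FPKM, against 2.31 FPKM in mCherry 3. The forebrain list of 8 genes summed to 9.09 to 16.5 FPKM in hND6 and 8.43 to 32.3 FPKM in mCherry, and the retinal ganglion cell list of 10 to 36.1 to 48.1 FPKM in hND6 and 42.2 to 97.4 FPKM in mCherry. Hypothalamic genes summed to 3.69 to 12.8 FPKM in hND6 and 4.81 to 21.2 FPKM in mCherry, with Hcrt and Pmch at 0 throughout. Sag, a photoreceptor gene, stood at 68.3 FPKM in hND6 2 and at no more than 2.01 FPKM elsewhere. Astrocyte genes summed to 2146 to 2550.0 FPKM in hND6 and 1560.3 to 2075 FPKM in mCherry, microglial genes to 405 to 513 FPKM in hND6 and 274 to 479.6 FPKM in mCherry. Differences of the members between the groups are given with and without hND6 1 and mCherry 3, except on a scale of constant sum per library. In bulk RNA, fewer cells of a type and less RNA per cell cannot be told apart.

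No difference between hND6 and mCherry passed the test in any of the 10 genes. In limma with Benjamini-Hochberg adjustment over 16157 genes 0 members passed the threshold of 0.05, where 0.0433% of all tested genes passed, all of these higher in hND6. At an unadjusted p under 0.05, 0 members passed against 15.2% of all genes (9.11% higher and 6.05% lower in hND6), and voom on recovered reads gave 0 by either measure. For no member did the 3 hND6 and 3 mCherry values lie apart without overlap, against 22.8% of all genes (12.6% higher and 10.2% lower). In the fit, 9 of the 10 lay lower and 1 higher in hND6, with a median log2 ratio (hND6 over mCherry) of -0.17, beside 7848 higher and 8309 lower of all genes with a median of -0.01. With mCherry 3 left out, 7 of the 10 lay higher and the median was 0.31. With hND6 1 and mCherry 3 both left out, 7 lay higher and the median was 0.13. The 16 genes of nerve cell bodies and synapses moved alongside: 2 lay higher and 14 lower with all libraries, 16 lay higher without mCherry 3, and 8 lay higher and 8 lower without both. Their part in the members' direction was not tested. Scaled to a constant sum per library, 9 members lay lower and 1 higher. Their median was then -0.29, where that of all genes was -0.14.

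**Figure D1:**
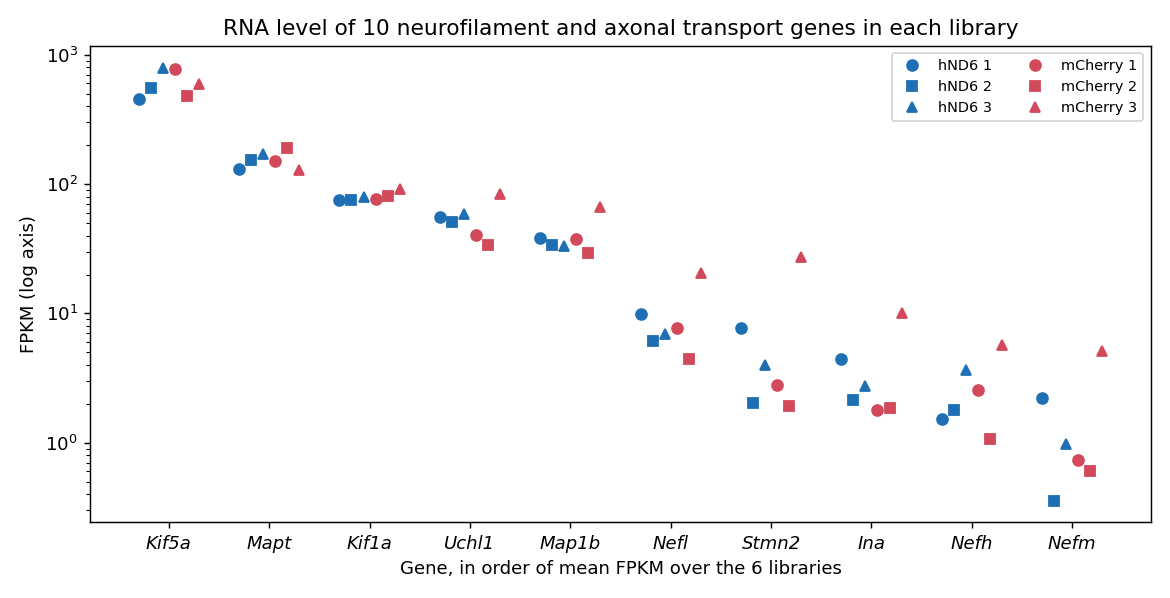
FPKM (log axis) of the 10 genes in each of the 6 libraries, hND6 left of mCherry within each gene, genes in order of their mean. Kif5a stood between 457 and 796 FPKM and Nefm between 0.357 and 5.08, and for 8 of the 10 genes mCherry 3 was the highest point.

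The 10 genes spanned a wide range of levels, and the filaments were at its low end. On the FPKM scale, which is per exon length, the means over 6 libraries ran from 609 for Kif5a through 154 for Mapt, 79.9 for Kif1a, 54.2 for Uchl1 and 39.8 for Map1b to 9.28 for Nefl, 7.61 for Stmn2, 3.83 for Ina, 2.72 for Nefh and 1.66 for Nefm. The ranges of Kif5a, Mapt and Kif1a did not overlap, and neither did those of Map1b and Nefl. All other neighbours in this order had overlapping ranges over the libraries. Kif1a exceeded Uchl1, and Uchl1 exceeded Map1b, in each of the 6 libraries. Ina exceeded Nefh in 4. Among protein-coding genes Kif5a ranked 19 by mean FPKM and Mapt 141, whereas Nefl ranked 7053 and Nefm 12135. The sources used here do not say whether intron reads were counted. FPKM divides by exon length, so if they were, levels of Mapt (span 100701 bp, exons 5253 bp), Kif1a (86359 and 8206 bp) and Map1b (95095 and 11808 bp) could be raised against that of Nefl (5233 and 3380 bp). So could those of Stmn2 (52247 and 2073 bp) and Nefm (42257 and 3680 bp), which nevertheless lay below Nefl. Kif5a, the highest, has 37653 and 6295 bp. The part of intron reads in this order was not tested.

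The 10 genes differed in how far they stood out in mCherry 3, the library with most neuron transcripts. The level there was 9.72 times the median of the other 5 libraries for Stmn2, 6.92 times for Nefm, 4.66 for Ina, 3.16 for Nefh and 2.96 for Nefl. It was 1.98 times for Map1b, 1.64 for Uchl1, 1.19 for Kif1a, 1.08 for Kif5a and 0.84 for Mapt. A ratio of at least 2 was thus found for 5 of the 10 members, against 8.23% of all tested genes and 15 of the 16 genes of nerve cell bodies and synapses, whose ratios ran from 0.838 to 28.9. In 8 of the 10 members mCherry 3 was the highest library, against 20.6% of all tested genes. In 0 members was it hND6 1, against 8.18%. In hND6 1, which was also rich in neuron transcripts, the order was not the same. The level there was 3.30 times the mean of hND6 2 and 3 for Nefm, 2.57 for Stmn2, 1.81 for Ina and 1.52 for Nefl, but 0.56 for Nefh.

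**Figure D2:**
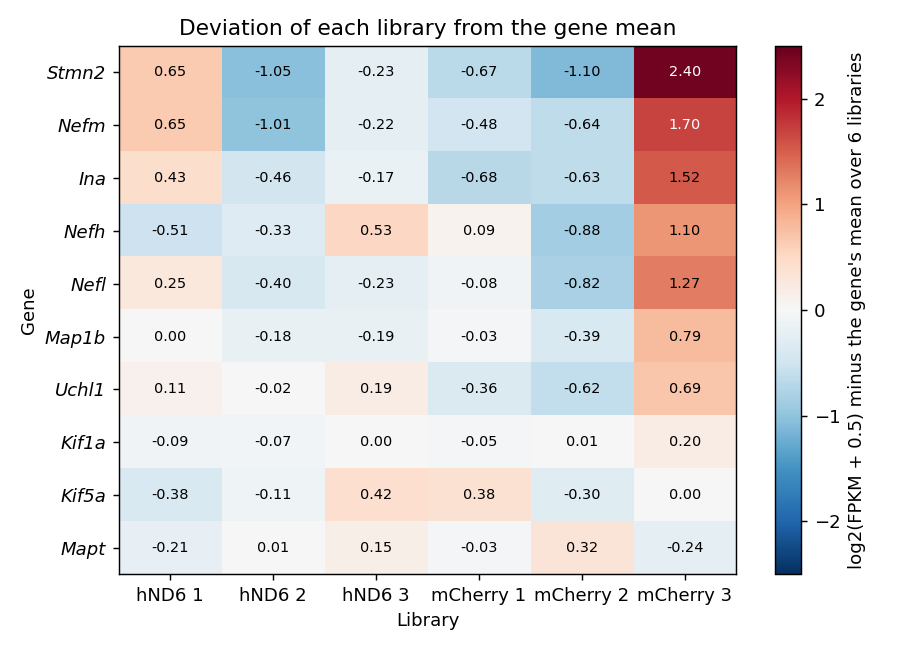
Deviation of each library from the gene's mean over the 6 libraries, in log2(FPKM + 0.5), rows in order of the ratio of mCherry 3 to the median of the others. The column of mCherry 3 runs from 2.40 for Stmn2 at the top to -0.24 for Mapt at the bottom, and hND6 1 is also above the mean for Stmn2, Nefm, Ina and Nefl, and by 0.11 for Uchl1.

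Set against Snap25, a synaptic protein gene of neurons in general, the members differed in how constant their ratio was within a library. Snap25 is itself highest in mCherry 3, so these ratios are another view of the levels above and no separate evidence. Snap25 stood at 53.6, 8.77 and 15.6 FPKM in hND6 replicates 1 to 3 and at 15.6, 9.08 and 158 FPKM in mCherry replicates 1 to 3. The ratio of Stmn2 to Snap25 stayed between 0.144 and 0.255 in hND6 and between 0.172 and 0.213 in mCherry libraries, so the highest was 1.77 times the lowest. For Nefm the highest ratio was 2.08 times the lowest. For Nefl the ratio was 0.185, 0.694 and 0.446 in hND6 and 0.498, 0.488 and 0.130 in mCherry, with hND6 1 and mCherry 3 far below the rest. The highest ratio was 3.87 times the lowest for Ina, 5.33 for Nefl, 8.24 for Nefh, 9.10 for Map1b, 10.98 for Uchl1, 15.3 for Kif1a, 16.7 for Kif5a and 25.8 for Mapt. In the 2 libraries with fewest neuron transcripts, hND6 2 and mCherry 2, Nefl still stood at 6.09 and 4.44 FPKM and Kif5a at 550.0 and 481 FPKM. What part the neuron transcripts have in these levels was not tested.

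**Figure D3:**
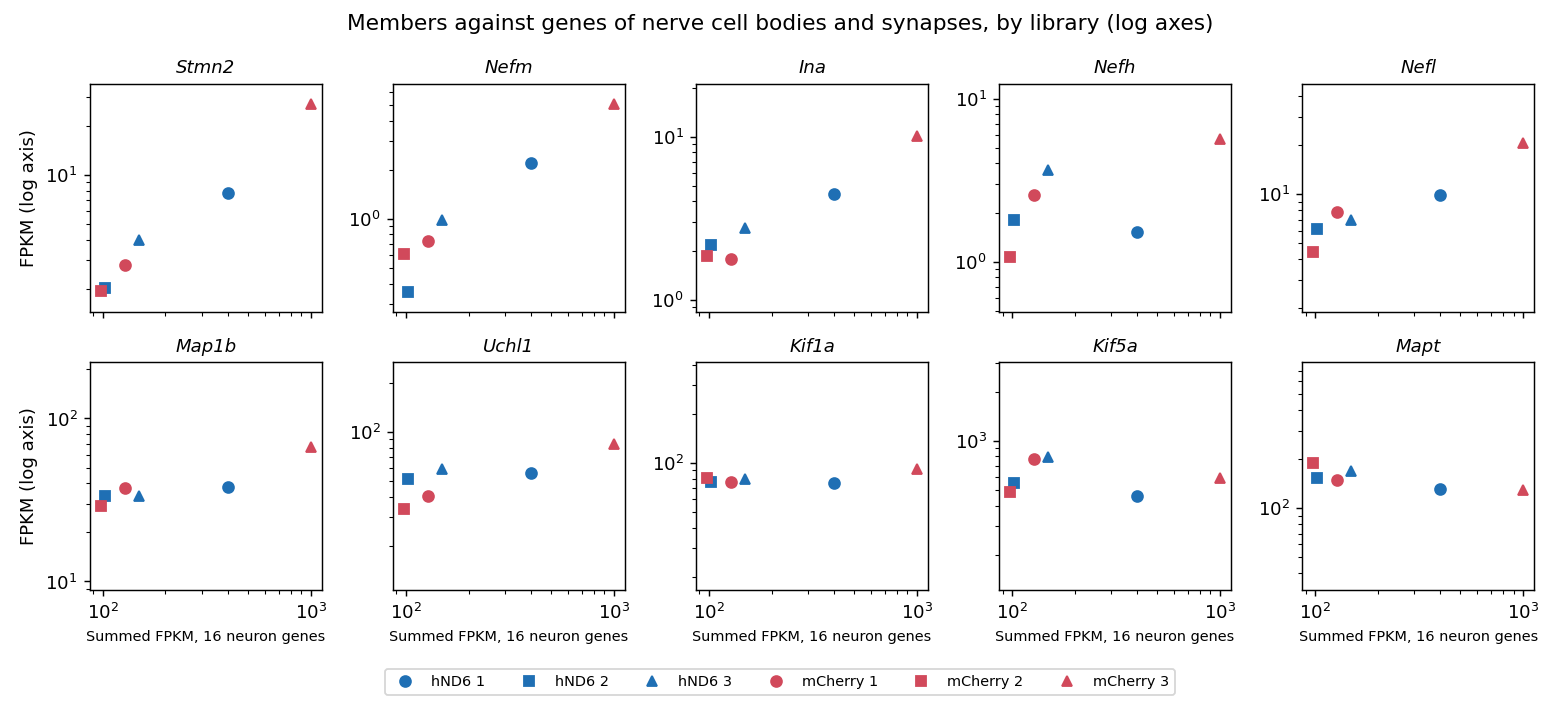
FPKM of each member against the summed FPKM of 16 genes of nerve cell bodies and synapses, by library, on log axes. The vertical axis covers the same fold range in each panel. Stmn2, Nefm, Ina and Nefl climb with the neuron genes, and Map1b does so less steeply. Nefh and Uchl1 are also highest in mCherry 3, with less regular steps. Kif1a stays nearly level, and Kif5a varies without following the neuron genes. Mapt is highest, at 191 FPKM, in mCherry 2, where the neuron genes sum to the least. It is lowest, at 129 FPKM, in mCherry 3, where the neuron genes sum to 1004.

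Promoter windows of RefSeq on the build GRCm38.p6, from 250 bases before to 50 after the start site, were matched for 4 of the 10 members: Ina, Kif1a, Map1b and Uchl1. The windows of 3 are shown because these genes differed in their level in mCherry 3 over the median of the other libraries, Ina at 4.66, Map1b at 1.98 and Kif1a at 1.19. Capitals mark TATAAA, the core of a TATA box, and CAGCACC, part of the RE1 element that the repressor REST binds in neuronal genes, on either strand. GGGCGG, the GC box, was also searched and is left in lower case. The 3 motifs were chosen after the sequences were seen. Kif1a has 2 windows, of which that at the start of the deposited gene is shown.
Ina (chr19:47014431-47014730, plus strand): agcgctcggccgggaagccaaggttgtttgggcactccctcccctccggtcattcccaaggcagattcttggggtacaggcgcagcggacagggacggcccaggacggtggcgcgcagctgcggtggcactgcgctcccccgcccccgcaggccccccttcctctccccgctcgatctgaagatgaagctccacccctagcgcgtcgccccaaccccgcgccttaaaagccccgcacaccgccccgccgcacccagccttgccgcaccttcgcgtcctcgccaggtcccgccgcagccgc
Map1b (chr13:99516553-99516852, minus strand): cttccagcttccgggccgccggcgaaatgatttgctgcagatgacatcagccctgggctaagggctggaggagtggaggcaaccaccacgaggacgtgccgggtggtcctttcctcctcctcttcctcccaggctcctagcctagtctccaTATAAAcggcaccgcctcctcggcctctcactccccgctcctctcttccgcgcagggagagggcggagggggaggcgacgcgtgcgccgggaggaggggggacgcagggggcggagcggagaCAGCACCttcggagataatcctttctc
Kif1a (chr1:93101825-93102124, minus strand): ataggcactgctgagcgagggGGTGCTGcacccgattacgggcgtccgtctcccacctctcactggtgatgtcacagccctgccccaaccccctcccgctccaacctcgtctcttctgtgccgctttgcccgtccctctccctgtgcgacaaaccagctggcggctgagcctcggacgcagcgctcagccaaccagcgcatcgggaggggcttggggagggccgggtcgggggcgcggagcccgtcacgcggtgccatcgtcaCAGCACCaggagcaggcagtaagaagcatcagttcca
Of 32851 windows of this length 7.14% held CAGCACC, 13.6% held TATAAA and 35.7% held GGGCGG on either strand. CAGCACC was found in the window of Map1b and 2 times in the window shown for Kif1a, where the first match is its reverse complement, and TATAAA in that of Map1b. The other window of Kif1a held CAGCACC 1 time. GGGCGG was found 2 times each in Ina and Map1b and 0 times in Kif1a. The window of Ina held neither CAGCACC nor TATAAA, and that of Uchl1 none of the 3. The motifs do not overlap each other in these windows, and a match is a description of the letters only. Matches were counted anywhere in a window, whatever their distance from the start site, and only for these exact letters. The TATAAA of Map1b is therefore not called a TATA box, nor is Ina said to lack one.

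The genes whose profile over the 6 libraries lay nearest to the mean profile of Nefl, Nefm and Nefh were Rims1, which organises the presynaptic active zone, Rin1, a Ras effector, Dusp14, a phosphatase, Panx2, a pannexin, and Mapk8ip2, a scaffold of kinase signalling. Their root mean square distances, in log2(FPKM + 0.5) units over 6 libraries, ran from 0.0928 for Rims1 to 0.155 for Mapk8ip2. The genes that form that mean did not share 1 profile: their own distances to it were 0.144 for Nefl, 0.354 for Nefm and 0.378 for Nefh. Among the other members the distance was 0.279 for Ina, 0.344 for Map1b, 0.376 for Uchl1 and 0.843 for Mapt. Nefm and Nefh thus lay farther from the mean profile than Ina did. Rims1 stood at 2.09, 1.31 and 2.11 FPKM in hND6 and 1.605, 0.973 and 5.21 FPKM in mCherry. Nearest to Stmn2, a comparison chosen after its values were seen, was Syp, a synaptic vesicle protein, at 0.112.

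The neurofilament light gene Nefl (chromosome 14 of the mouse build mm10, 68083863 to 68089095, plus strand) stood at 9.89, 6.09 and 6.95 FPKM in hND6 replicates 1 to 3 and at 7.74, 4.44 and 20.6 FPKM in mCherry replicates 1 to 3. The mCherry values enclosed all hND6 values. The log2 ratio of hND6 to mCherry was -0.25 with a 95% interval of -1.49 to 0.99 (limma adjusted p = 0.848). Without mCherry 3 it was 0.33.

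Nefm, the medium subunit (chromosome 14, 68082590 to 68124846, minus strand), contains the whole of Nefl within its span on the opposite strand. The kit keeps strand, but whether the counting used it is not stated, so reads of the pair may not be fully separated. It stood at 2.21, 0.357 and 0.979 FPKM in hND6, from 278, 26 and 77 reads, and at 0.734, 0.607 and 5.08 FPKM in mCherry, from 82, 74 and 481 reads. Here hND6 1 and mCherry 3 were the highest library of their groups by a wide margin, at 3.30 times the mean of hND6 2 and 3 and 7.58 times the mean of mCherry 1 and 2. The log2 ratio of hND6 to mCherry was -0.38 (95% interval -2.13 to 1.36, limma adjusted p = 0.831), and -0.05 without both libraries.

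Nefh, the heavy subunit, whose tail carries many phosphorylation sites (chromosome 11, 4938754 to 4948064), stood at 1.53, 1.80 and 3.66 FPKM in hND6 and 2.57, 1.07 and 5.69 FPKM in mCherry. Unlike Nefl, Nefm and Ina, Nefh was lowest within the hND6 group in hND6 1. Its log2 ratio of hND6 to mCherry was -0.21 (95% interval -1.49 to 1.07, limma adjusted p = 0.88) and 0.49 without hND6 1 and mCherry 3. Ina (chromosome 19, 47014698 to 47025327) stood at 4.43, 2.15 and 2.75 FPKM in hND6 and 1.78, 1.86 and 10.03 FPKM in mCherry. With mCherry 3 left out its hND6 values all lay above the other mCherry values, with a log2 ratio of 0.59 (95% interval -0.12 to 1.30, limma adjusted p = 0.3), against -0.14 with all libraries (95% interval -1.64 to 1.36, limma adjusted p = 0.932). The share of all genes that lay apart in this way without mCherry 3 was not counted, so the separation is description only.

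The make-up of the filament RNA was dominated by the light subunit in each library. Of the summed FPKM of Nefl, Nefm and Nefh, Nefl made up 60.0 to 73.9% in hND6 and 65.7 to 72.5% in mCherry libraries. Nefm made up 16.2% in both hND6 1 and mCherry 3, and between 4.33 and 9.92% in the other 4 libraries. Nefh made up 11.2% in hND6 1, 31.6% in hND6 3 and 18.1% in mCherry 3. The share of Nefm thus was highest in the 2 libraries with most neuron transcripts, whereas that of Nefh was not.

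Kif5a, a neuronal heavy chain of kinesin-1 (chromosome 10, 127225696 to 127263348), stood at 457, 550.0 and 796 FPKM in hND6 and 773, 481 and 594 FPKM in mCherry. The highest values were hND6 3 and mCherry 1, and the groups overlapped throughout. The log2 ratio of hND6 to mCherry was -0.05 with a 95% interval of -0.69 to 0.60 (limma adjusted p = 0.947). Kif5a supplied 80.3 to 84.5% of the summed FPKM of the 3 kinesin-1 heavy chains in hND6 and 81.1 to 83.0% in mCherry libraries, while Kif5b, the form used by most cell types, supplied 11.9 to 15.4% over all libraries. Kif5c, the other neuronal form, supplied 4.46% in hND6 1, against 6.47% in mCherry 3, and no more than 3.48% elsewhere. So while Kif5c was highest where neuron transcripts were highest, Kif5a in mCherry 3 was 1.08 times the median of the other 5 libraries.

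Kif1a, a kinesin-3 that carries synaptic vesicle precursors (chromosome 1, 93015464 to 93101822), was the steadiest member. It stood at 74.9, 75.9 and 79.8 FPKM in hND6 and 76.9, 80.5 and 91.3 FPKM in mCherry, a log2 ratio of -0.11 (95% interval -0.32 to 0.11, limma adjusted p = 0.617). Without mCherry 3, its highest library, the log2 ratio was -0.03, and -0.02 without hND6 1 as well. On the constant-sum scale, where all genes had a median of -0.14, it was -0.25 (limma unadjusted p = 0.0236, adjusted p = 0.239), the 1 member under an unadjusted 0.05 on that scale. That scale was run only with all libraries, mCherry 3 among them. Its relative Kif1b, which also moves mitochondria and vesicles, was the most abundant of the Kif1 genes by FPKM, at 50.7 to 58.8% of their sum against 26.1 to 37.0% for Kif1a. The 37.0% was that of mCherry 3.

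Among the microtubule proteins the members parted. Mapt, tau (chromosome 11, 104231390 to 104332090), stood at 132, 154 and 170 FPKM in hND6 and 150, 191 and 129 FPKM in mCherry. It was the only member that was lowest in mCherry 3, and its second lowest value was hND6 1. The log2 ratio of hND6 to mCherry was -0.03 (95% interval -0.44 to 0.38, limma adjusted p = 0.941). Without mCherry 3 it was -0.16, and -0.07 without hND6 1 as well. Map1b, prominent in growing axons (chromosome 13, 99421446 to 99516540), stood at 38.2, 33.7 and 33.4 FPKM in hND6 and 37.5, 29.2 and 66.7 FPKM in mCherry. Only mCherry 3 stood apart, at 2.003 times the mean of mCherry 1 and 2. Its log2 ratio of hND6 to mCherry was -0.25 (95% interval -0.95 to 0.44, limma adjusted p = 0.718).

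Stmn2, a marker of neurons with long axons (chromosome 3, 8509360 to 8561606), varied most together with Nefm. It stood at 7.72, 2.02 and 3.97 FPKM in hND6 and 2.80, 1.94 and 27.2 FPKM in mCherry. Its highest library exceeded its lowest 14.1 times, against 14.2 times for Nefm and 1.22 times for Kif1a. The 95% interval of its log2 ratio of -0.42 ran from -2.74 to 1.90 (limma adjusted p = 0.863). Without mCherry 3 the value was 0.68, and 0.25 without hND6 1 as well.

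Uchl1 (chromosome 5, 66676091 to 66687234) was the single member that lay higher in hND6 with all libraries. It stood at 56.2, 51.3 and 59.2 FPKM in hND6 and 40.5, 33.7 and 84.2 FPKM in mCherry. The 3 hND6 values lay close together, above mCherry 1 and 2 and below mCherry 3. As for Ina, the share of all genes that lay apart in this way without mCherry 3 was not counted, so this separation is description only. The log2 ratio of hND6 to mCherry was 0.19 (95% interval -0.60 to 0.97, limma adjusted p = 0.818). Without mCherry 3 it was 0.58 (95% interval 0.31 to 0.85), the nearest to the threshold of any member, with a limma adjusted p of 0.0702. Without hND6 1 as well it was 0.57 (adjusted p = 0.14), and without mCherry 2 it was -0.08. Without mCherry 3, 0.811% of all tested genes passed the threshold, and 0.00619% without both libraries, no member among them in either case. Scaling to a constant sum, which set the median of all genes to -0.14, gave 0.04 for Uchl1 with all libraries.

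**Figure D4:**
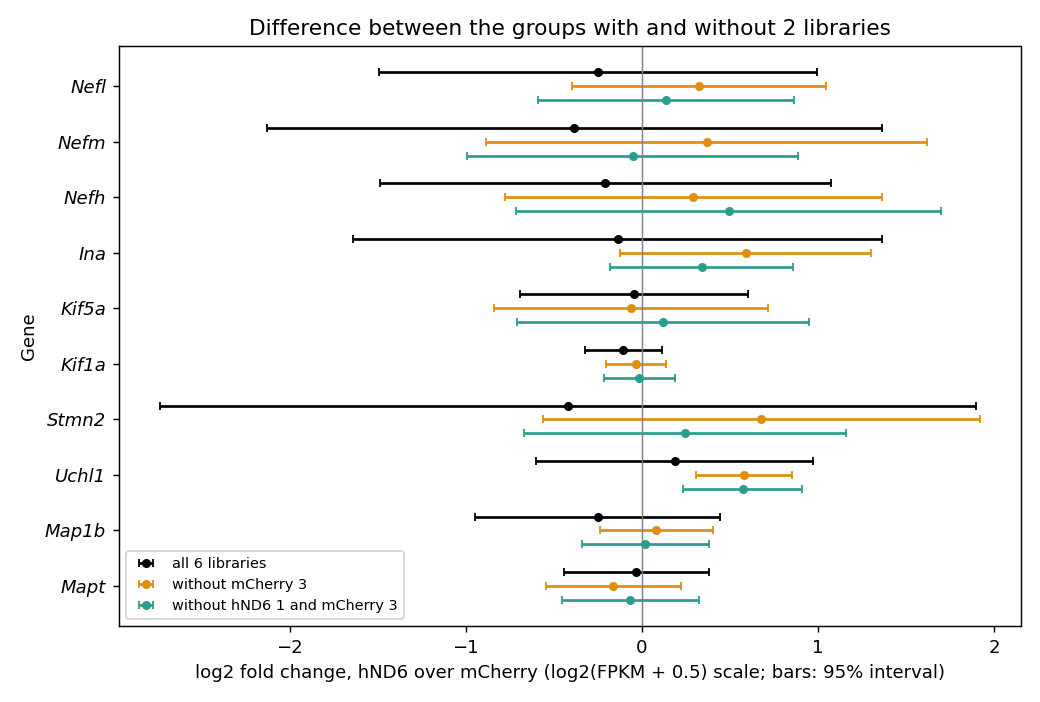
Log2 fold change of hND6 over mCherry with its 95% interval for the 10 genes, with all 6 libraries, without mCherry 3, and without hND6 1 and mCherry 3. All 10 intervals with all libraries include 0. The interval of Stmn2 is the widest and that of Kif1a the narrowest, and leaving out mCherry 3 moves Stmn2 from -0.42 to 0.68.

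Wider lists of the transport machinery held no gene called in either direction, beside the 0.0433% of all genes. Genes whose groups did not overlap numbered 0 higher and 3 lower of 14 kinesin genes, 6 higher and 2 lower of 21 dynein and dynactin genes, 2 higher and 1 lower of 11 adaptors, and 4 higher and 0 lower of 21 microtubule and growth cone genes, where 12.6% of all genes lay higher and 10.2% lower in this way. Values given with ± are means with their SD over 3 libraries a group. Of 14 other kinesin motors and light chains 5 lay higher in hND6 and 9 lower, around a median log2 ratio of -0.10. On the constant-sum scale, where the median of all genes was -0.14, all 14 lay lower. The most abundant were Klc1, a kinesin light chain, which averaged 183 ± 5.43 FPKM in hND6 nerves and 176 ± 8.31 FPKM in mCherry nerves, and Kif1b. Kif3a, a kinesin-2 motor subunit, had the smallest p. It averaged 23.5 ± 2.34 FPKM in hND6 nerves and 29.8 ± 2.34 FPKM in mCherry nerves, and the log2 ratio was -0.34 ± 0.10 (SE; limma adjusted p = 0.243). Kif21a (-0.31) and Kif2a (-0.16) came next, at -0.16 and -0.0764 once the trend with gene span was removed.

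Cytoplasmic dynein and its activator dynactin drive transport towards the cell body. Of their 21 genes 15 lay higher and 6 lower, around a median of 0.08, and 7 lay higher on the constant-sum scale. Actr1a, the actin-related filament protein of dynactin, averaged 74.7 ± 4.005 FPKM in hND6 nerves and 58.6 ± 4.45 FPKM in mCherry nerves (limma adjusted p = 0.199). Dync1i1, the neuronal dynein intermediate chain, averaged 19.3 ± 4.58 FPKM in hND6 nerves and 27.8 ± 2.73 FPKM in mCherry nerves, without overlap, at a log2 ratio of -0.53 ± 0.18 (SE; limma adjusted p = 0.263), and -0.28 with the gene span trend removed. Dynlrb1, a dynein light chain, had a log2 ratio of 0.30. The most abundant, Dync1li2 and Dctn2, had log2 ratios of 0.08 and 0.10.

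Of 11 transport adaptors 4 lay higher and 7 lower, around a median of -0.10. Fez1, a kinesin-1 adaptor, averaged 216 ± 12.4 FPKM in hND6 nerves and 163 ± 14.1 FPKM in mCherry nerves, a log2 ratio of 0.41 ± 0.10 (SE; limma adjusted p = 0.199). Mapk8ip1, a scaffold that links kinesin-1 to cargo, averaged 121 ± 6.64 FPKM in hND6 nerves and 95.4 ± 8.22 FPKM in mCherry nerves (limma adjusted p = 0.211). Trak1, which ties mitochondria to kinesin, had a log2 ratio of -0.20 (limma adjusted p = 0.307), and -0.00622 once the trend with gene span was removed.

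Of 21 tested microtubule and growth cone genes 10 lay higher and 11 lower, around a median of -0.06. Tuba1a, an alpha tubulin, averaged 431 ± 42.3 FPKM in hND6 nerves and 278 ± 12.3 FPKM in mCherry nerves, a log2 ratio of 0.63 ± 0.12 (SE; limma adjusted p = 0.155). Tubb4a, a beta tubulin, averaged 450.3 ± 47.4 FPKM in hND6 nerves and 302 ± 37.3 FPKM in mCherry nerves (limma adjusted p = 0.194). Stmn1, a relative of Stmn2, averaged 166 ± 6.07 FPKM in hND6 nerves and 117 ± 15.6 FPKM in mCherry nerves (limma adjusted p = 0.178). None of the 3 passed without hND6 1 and mCherry 3 either, where the limma adjusted p was 0.109 for Tuba1a, 0.15 for Tubb4a and 0.129 for Stmn1. Tubb3, the neuronal beta tubulin, is listed at 0 in all 6 libraries. Gm20388, a gene of the same strand with a mean of 43.2 FPKM, overlaps it over 10592 bases, so the listed 0 is not read as absence.

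The other intermediate filaments are mostly those of glia. Gfap, of astrocytes, averaged 1474 ± 177 FPKM in hND6 nerves and 1130 ± 193 FPKM in mCherry nerves (log2 ratio 0.39, limma adjusted p = 0.444). It was lowest in mCherry 3, at 907 FPKM. Vim, of many glial and connective tissue cells, averaged 717 ± 137 FPKM in hND6 nerves and 564 ± 110.0 FPKM in mCherry nerves (limma adjusted p = 0.492), and Nes had a log2 ratio of 0.20. Prph, the filament of peripheral neurons, reached no more than 0.452 FPKM in any library. All 4 tested genes of this list lay higher in hND6, and 3 of the 4 on the constant-sum scale. Some other marker lists leaned the same way. Higher were 7 of 7 microglial genes (median 0.46), 6 of 6 fibroblast and meningeal genes and 3 of 3 tested Schwann cell genes. So were 7 of 8 oligodendrocyte genes and 6 of 8 astrocyte genes, which include Gfap. Others did not. Of 6 endothelial genes 2 lay higher and 4 lower (median -0.17), and of 7 oligodendrocyte precursor genes 4 higher and 3 lower (median 0.04). Of tested forebrain neuron genes 2 lay higher and 4 lower, and of tested retinal ganglion cell genes 1 higher and 2 lower. The part of these lists in the filament values was not tested.

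**Figure D5:**
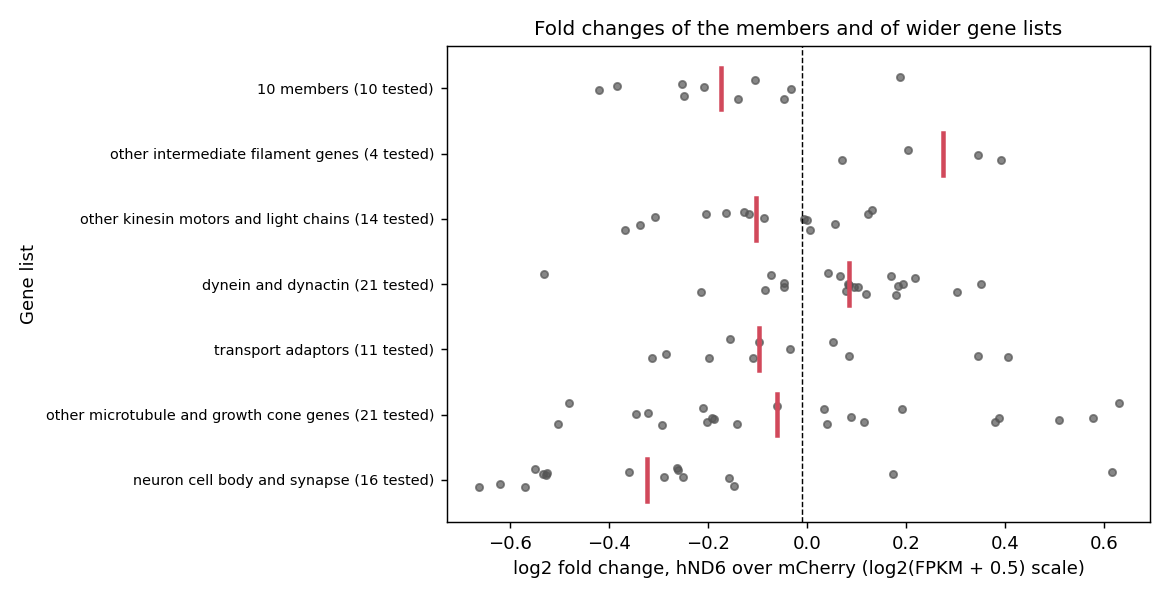
Log2 fold change of hND6 over mCherry for the tested genes of the member list and of wider lists (points, jittered vertically), with the list median (red bar) and the median of all tested genes (dashed line, -0.01). The member median is -0.17 and that of the nerve cell body and synapse genes -0.32. The list of other intermediate filament genes lies to the right, at 0.27.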

How the data were processed

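RNA of optic nerve was extracted with Qiagen RNeasy and made into TruSeq Stranded Total RNA libraries, per the labels. CASAVA 1.4, Trim Galore, STAR, HTSeq, mm10 and GRCm38 are named in the submitters' processing notes, without a role. The authors deposited FPKM per gene, as 6 single tables and a combined table with identical values.

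Reads per gene were recovered as FPKM times exon length over its smallest step in a library (whole within 0.1 read for at least 99.99% of values). The 16157 genes averaging 0.5 FPKM or more were fitted as log2(FPKM + 0.5) in limma 3.58.1 (R 4.3.3) with an intensity trend, p-values being adjusted by Benjamini-Hochberg over all of them at 0.05. Log2 ratios on this scale understate changes of low genes. The script was tested on simulated data. Depth limits Nefm most, with 26 reads in hND6 2.

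The members and lists were chosen with earlier results of these data known. Besides all members, the text names the 3 genes of smallest p and the 2 of highest FPKM in each wider list, and the 5 genes nearest in profile to the neurofilament genes. Alternatives were other pseudocounts, filters and scalings, the gene span trend removed, no intensity trend, a replicate block, voom, and libraries left out. Some marker results are not reported here.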

Additional observations from a re-analysis of the deposited data

How the results depend on the processing

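No member passed the threshold under any alternative run: pseudocounts of 0.1 and 1, no filter or one of 1 FPKM, a constant sum, median-of-ratios scaling, the gene span trend removed, no intensity trend, the replicate block, voom on recovered reads, and leaving out each library or hND6 1 with mCherry 3. Without these 2 libraries the log2 ratio turned to 0.14 for Nefl, 0.49 for Nefh, 0.34 for Ina, 0.12 for Kif5a, 0.25 for Stmn2, 0.0198 for Map1b and -0.00244 for Dync1li2. With the gene span trend removed it was 0.00920 for Kif1a and 0.0966 for Mapt, while Trak1, Kif21a and Dync1i1 came closer to 0, and with voom 0.0748 for Ina. On the constant-sum scale it was -0.0236 for Kif1b, -0.0898 for Klc1, -0.0414 for Dctn2 and -0.0619 for Dync1li2. Leaving out single libraries gave -0.72 to 0.33 for Nefl, -0.81 to 0.37 for Nefm, -0.70 to 0.29 for Nefh, -0.52 to 0.59 for Ina, -0.27 to 0.13 for Kif5a, -1.08 to 0.68 for Stmn2, -0.0751 to 0.58 for Uchl1, -0.51 to 0.0819 for Map1b, -0.16 to 0.12 for Mapt, -0.000622 to 0.20 for Kif1b and -0.0316 to 0.14 for Dync1li2. Among all genes, the 7 called higher became 1 with no filter, 0 with voom, 1 without hND6 1 and mCherry 3, and 0 with the replicate block. With single libraries left out the count called higher ran from 0 (without mCherry 2) to 116 (without mCherry 3), and that called lower from 0 to 15. Whether the replicate numbers pair the libraries is not stated. Deviations of same-numbered libraries from their group mean correlated across genes at -0.416, 0.363 and -0.197, and hND6 1 correlated best with mCherry 3, at 0.555. Those 2 are the libraries with most neuron transcripts, so these correlations cannot tell whether the numbers pair the libraries. The cause of the changes between settings was not tested. A planned edgeR test on recovered reads was not run, since the deposited unit is FPKM.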
